A study of Mus musculus with 10 samples.

Results

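The 10 genes described here belong to the pericellular matrix-degrading system and were followed across the cells of E0771 tumors. They are the matrix metalloproteinases (MMPs) Mmp2, Mmp3, Mmp9, Mmp12, Mmp13 and Mmp14, the tissue inhibitors of metalloproteinases Timp1, Timp2 and Timp3, and Pdpn, which encodes the membrane glycoprotein podoplanin. The set is 10 of the 31053 genes in the single-cell count tables. They were chosen by name, and selected on their UMI sums per library and cell class in these data, WT against EC-AGO1-KO, so every WT to KO difference of theirs is given as a description, with no test. The tumors grew from E0771 cells, a mammary cancer line of C57BL/6 mice, injected into the mammary fat pad of female mice 16 weeks old, and were taken at day 21. EC-AGO1-KO mice carried VE-Cadherin-Cre, a recombinase driven from an endothelial promoter, together with floxed AGO1 alleles, and the WT mice were their littermates. The injected cancer cells were the same in both groups and carried no deletion. There were 10 libraries, 5 WT and 5 KO. Batch 1 held 1 library of each genotype, here WT batch 1 and KO batch 1, and batch 2 held WT 1, WT 3, WT 4, WT 5, KO 1, KO 2+3, KO 4 and KO 5+6, of which KO 2+3 and KO 5+6 were each made from 2 tumors.

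MMPs are zinc-dependent proteases made as inactive proenzymes that cut collagens, elastin, fibronectin and other matrix proteins, and TIMPs bind their active site and block them. Mmp14 is anchored in the cell membrane and, with Timp2 as an adaptor, activates the Mmp2 proenzyme at the cell surface, while Timp3 is held in the matrix and also inhibits several ADAM and ADAMTS proteases. In tumors much of this system is known to be made by stromal cells, with macrophage elastase (Mmp12) a macrophage product, stromelysin-1 (Mmp3) and gelatinase A (Mmp2) mainly fibroblast products, and podoplanin a marker of fibroblasts, lymphatic endothelium and some macrophages.

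The 10 libraries held between 8323896 and 10591577 unique molecular identifiers (UMIs, 1 per captured transcript) each, and 65298 barcodes passed the limits of 200 to 7000 genes and at most 10% mitochondrial UMIs. The batches stood apart. Batch 1 libraries had 1194 and 968 cells with a median of 4049 and 3862 UMIs, while batch 2 libraries had 6212 to 10190 cells with a median of 595 to 1142 UMIs, and Actb took 1.99% to 2.27% of UMIs in batch 1 against 8.77% to 17.0% in batch 2. No pair of libraries shared more than 28 cell barcodes. Clusters were named from marker genes. There were 55460 tumor-like cells, 1750 macrophage-like, 393 fibroblast-like, 201 pericyte-like and 203 endothelial-like cells, and these 5 names are used below without the suffix. All 13 macrophage, all 13 fibroblast and all 13 pericyte markers were detected in the class they name. Pericytes also carried 10 of the 13 fibroblast markers, whose summed level in batch 2 (16099 to 21069 counts per 1000000 UMIs of the class, or CPM, in WT libraries and 14058 to 25082 in KO libraries) was as high as that of the pericyte markers (13208 to 15711 and 12734 to 14866). Ago1, the deleted gene, had 27 to 52 UMIs per library over all cells and 0 UMIs in the 203 endothelial cells, where a count of 0 allows up to 3 UMIs, so the deletion could not be checked, and a tag at the 3′ end need not lie in the deleted part.

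The sequences upstream of 3 of the proteases, Mmp13, Mmp12 and Mmp3, are shown because each holds the same letters before a start site. The 3 genes lie in the same region of chromosome 9 (Mmp13 at chr9:7272514-7283333, Mmp12 at chr9:7344397-7360461 and Mmp3 at chr9:7445822-7455975, build GRCm38.p6). They were found in macrophages (Mmp13 and Mmp12) and in fibroblasts (Mmp3) of these tumors. RefSeq promoters, 250 bases before to 50 after a start, were matched for 8 of the 10 genes in 9 entries. The letters TGANTCA, the core recognised by AP-1 (Fos and Jun dimers) and read the same on both strands apart from the middle base, were found in 3 of those 8 genes, against 6.749% of all 32851 mouse promoters (2217). The match began 35 bases before the Mmp13 start, 44 bases before the second of 2 listed Mmp12 starts and 46 bases before the Mmp3 start. TATAAA, searched on both strands, was found in Mmp13 and Mmp3, and in 12.37% of all promoters. A match is a description of the letters only. The 100 bases before each start follow on the plus strand, with the TGANTCA match in capitals.
Mmp13, chr9:7272414-7272513: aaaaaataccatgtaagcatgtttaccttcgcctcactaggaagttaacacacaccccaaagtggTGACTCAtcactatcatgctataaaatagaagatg
Mmp12, chr9:7347274-7347373: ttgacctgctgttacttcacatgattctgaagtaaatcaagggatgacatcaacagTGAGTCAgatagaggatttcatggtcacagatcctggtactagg
Mmp3, chr9:7445722-7445821: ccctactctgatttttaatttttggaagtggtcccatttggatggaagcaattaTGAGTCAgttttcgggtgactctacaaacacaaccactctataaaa

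The genes differed in their source cells, though several shared a class. Levels are given as CPM, the UMIs of the gene per 1000000 UMIs of the class with Actb left out of the total, pooled over the libraries of a batch, with 95% Poisson intervals that cover counting error only. UMIs tag the 3′ end of a transcript and are not scaled by length, so a gene is compared between classes and not with another gene. Mmp12 was a macrophage transcript, with 342 CPM (314 to 372) in batch 1 and 228 CPM (184 to 279) in batch 2. Macrophages held 84.2% of its UMIs over all cells, 89.8% in batch 1 and 62.5% in batch 2. Mmp12 had 0 UMIs in fibroblasts, pericytes and endothelial cells, which allows at most 9.68 CPM in fibroblasts. Mmp13, the collagenase-3 gene, followed Mmp12 in macrophages at 264 CPM (239 to 291) in batch 1 and 57.6 CPM (36.9 to 85.6) in batch 2. Macrophages held 88.2% of Mmp13 UMIs over all cells, 91.1% in batch 1 and 57.1% in batch 2. Fibroblasts had 158 CPM of Mmp13 in batch 1, but those 24 UMIs came from 1 cell of WT batch 1. Both proteases lay above the free RNA level, read in barcodes of at most 50 UMIs, which was 10.2 to 28.6 CPM for Mmp12 and 0 to 9.80 CPM for Mmp13 over the 10 libraries.

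Fibroblasts were the site of highest level for Mmp3, Mmp2, Mmp14, Timp3, Timp1 and Pdpn. Mmp3 stood at 105 CPM (60.04 to 171) in fibroblasts of batch 1 and 241 CPM (171 to 331) in batch 2, against 1 UMI in macrophages and 1 UMI in pericytes, and fibroblasts held 62.1% of its UMIs. Mmp2 stood at 689 CPM (564 to 834) in batch 1 and 146 CPM (92.5 to 219) in batch 2, against 3.93 and 2.42 CPM in tumor cells, whose number was so large that they still held 50.5% of all Mmp2 UMIs and fibroblasts 44.0%. The order differed by batch. Fibroblasts held 70.5% and tumor cells 29.5% of Mmp2 UMIs in batch 1, against 16.2% and 72.5% in batch 2. The free RNA level of Mmp2 was 4.09 to 4.45 CPM in batch 1 and 6.20 to 12.4 CPM in batch 2. In batch 2 tumor cells lay below it, and the part of free RNA in their Mmp2 UMIs was not tested. Pdpn stood at 952 CPM (803 to 1120) and 1364 CPM (1187 to 1559) in fibroblasts, with 106 and 297 CPM in macrophages and 230 CPM (175 to 298) in epithelial-like cells, which were seen in batch 2. Pericytes carried 1 Pdpn UMI.

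The 3 inhibitors were split between compartments. Timp3 was mostly a mesenchymal and vascular transcript, though epithelial-like cells of batch 2 also carried 22 UMIs (87.3 CPM). It stood at 440 CPM (341 to 559) in fibroblasts of batch 1 and 869 CPM (729 to 1027) in batch 2, at 601 CPM (442 to 799) in batch 2 pericytes and at 166 and 280 CPM (184 to 407 in batch 2) in endothelial cells, while macrophages of batch 2 had 0 UMIs among 416934, which allows 7.20 CPM, and tumor cells 0.680 CPM. In batch 2 the intervals of fibroblasts and pericytes overlapped, and that of endothelial cells lay below both. Timp2 was made in most compartments. In batch 1 macrophages (471 CPM, 437 to 506), tumor cells (470 CPM, 457 to 482) and fibroblasts (420 CPM, 324 to 537) could not be told apart by their intervals. In batch 2 macrophages had 59.96 CPM (38.8 to 88.5), below tumor cells (158 CPM, 154 to 161), while the interval of fibroblasts (127 CPM, 77.5 to 196) overlapped with both. Tumor cells held 89.6% of its UMIs. Timp1 differed between the batches. Fibroblasts had 2724 CPM (2469 to 3000) in batch 1 and 63.4 CPM (30.4 to 117) in batch 2, and tumor cells 45.0 and 3.87 CPM. Summed pericyte markers in fibroblasts were 7255 CPM in WT batch 1. In batch 2 they were 658 to 848 CPM in WT and 542 to 1244 CPM in KO libraries. The sequencing platform, the number of cells and the UMIs per cell differed between the batches too. The part of each in the Timp1 difference cannot be told apart.

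Mmp14, like Timp2, had most of its UMIs (85.2%) in tumor cells, but unlike Timp2 its level was highest in fibroblasts. It stood at 611, 195, 117 and 240 CPM in fibroblasts, macrophages, tumor cells and endothelial cells of batch 1. In batch 2 these levels were 178, 93.5, 83.1 and 51.8 CPM. Mmp9, gelatinase B, was scarce, with 54 UMIs over all cells, 36 of them in tumor cells, and reached 19.0 CPM at most (3 UMIs, in fibroblasts of batch 2) among the 5 classes named here. Tumor clusters of batch 2 had at most 1.665 CPM of Mmp9, below its free RNA level of 3.72 to 7.25 CPM in that batch. The plot of level by class shows the patterns of the 10 genes.

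**Figure D1:**
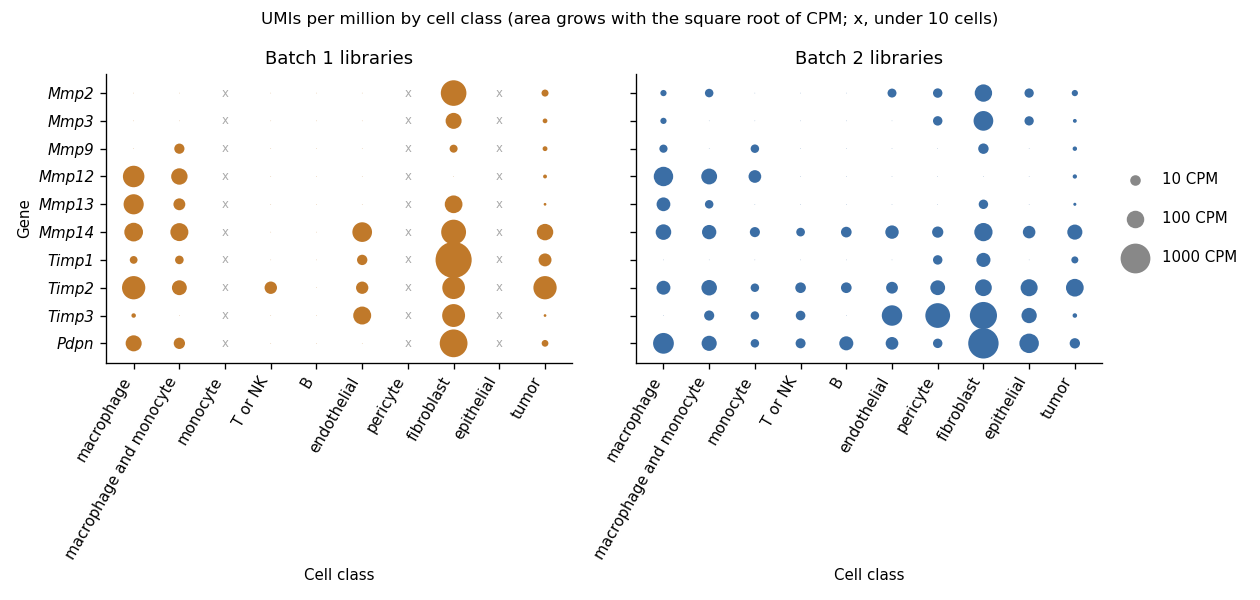
Level of each of the 10 genes by cell class in batch 1 (left) and batch 2 (right), in CPM of the class, where the area of a dot grows with the square root of the CPM and a cross marks a class of under 10 cells. In batch 2 the dots of Mmp12 (228 CPM) and Mmp13 (57.6 CPM) are largest in macrophages, and those of Timp3 in fibroblasts (869 CPM) and pericytes (601 CPM) and of Pdpn in fibroblasts (1364 CPM).

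Within classes the members were not evenly spread. The 23 fibroblasts of batch 1 formed 1 sub-cluster, in which 12 of 13 fibroblast and 12 of 13 pericyte markers were raised over the tumor cells. Those of batch 2 fell into 2, and the smaller one was led by Dpt and Tnfaip6. It held Mmp3 at 380.3 CPM in WT cells and at 693 CPM in KO cells (9 and 11 UMIs), against 177 and 125 CPM in the larger one (11 and 7 UMIs). A single cell held 5 of the 6 fibroblast Mmp3 UMIs of WT 1, and another 5 of the 11 of WT 3. Timp3 had the opposite order, 211 and 189 CPM in the smaller sub-cluster (5 and 3 UMIs) and 901 and 1304 CPM in the larger (56 and 73 UMIs). In macrophages a few cells carried most of the protease: the 347 Mmp12 UMIs of WT batch 1 came from 46 of 233 cells, with 54 in 1 cell, and the 261 Mmp13 UMIs from 70 cells, with 32 in 1 cell.

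To see whether endothelial AGO1 loss went with a change of these genes in the cells that make them, UMIs were summed per library and class and fitted with the batch as a covariate. In macrophages 3 of the 10 genes (Mmp12, Timp2 and Pdpn) had enough UMIs to be fitted, and 2 of these 3 were lower in KO libraries and 1 was near equal. Over all 1960 genes fitted in macrophages, 0 (percent called 0%) passed an adjusted p of 0.05 in edgeR's quasi-likelihood test and 0 in DESeq2, with 63 and 39 at an unadjusted p under 0.05. The batch 2 libraries of WT and KO did not overlap for 2.24% of those genes and for none of the 3 members.

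Mmp12 stood at 476 CPM in WT batch 1, 147, 45.1, 277 and 480.2 CPM in WT 1, 3, 4 and 5, 223 CPM in KO batch 1 and 318, 166, 151 and 229 CPM in KO 1, 2+3, 4 and 5+6. The WT libraries were spread over a range that took in every KO library, and the batch 2 values, 237 ± 188 CPM (SD, n = 4) in WT and 216 ± 75.7 CPM (n = 4) in KO, lay close together. The share of free RNA in macrophages, estimated from collagen transcripts, was 41.1% in WT 1 and 25.7% in WT 3, on 10 UMIs each. It was 0% to 5.76% in the other WT libraries and 0% to 8.21% in the KO libraries. Its part in the Mmp12 values of single libraries was not tested. The fitted log2 change was -0.83 ± 0.25 (SE, 5 WT and 5 KO). It kept its sign in all 24 alternatives and moved to -0.31 without WT batch 1, the library with the most Mmp12 UMIs, to -0.35 in batch 2 alone and to -0.45 in DESeq2. Between the batch 1 libraries alone, with no replicate, the KO to WT ratio of Mmp12 was 0.469 (0.389 to 0.562), from 182 and 347 UMIs.

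Mmp13 was under the filter on low counts, having 1 to 7 UMIs in each batch 2 library. Its macrophage level was 358 CPM in WT batch 1 and 180.0 CPM in KO batch 1 (261 and 147 UMIs, ratio 0.503, 0.408 to 0.618), 81.0 ± 47.7 CPM (SD, n = 4) in WT of batch 2 and 64.7 ± 57.8 CPM (n = 4) in KO. Both macrophage-borne proteases were lower in the KO than in the WT library of batch 1, where each genotype had 1 library and the intervals cover the counting of UMIs alone, not the spread between tumors or cells. In batch 2 both overlapped between the groups.

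Pdpn in macrophages differed between batches in direction. It stood at 95.9 CPM in WT batch 1 and 115 CPM in KO batch 1, where the ratio of 1.20 (0.871 to 1.66) included 1. In batch 2 it stood at 246, 428, 0 and 747 CPM in WT 1, 3, 4 and 5 and at 202, 140.0, 208 and 104 CPM in KO 1, 2+3, 4 and 5+6. WT 1, WT 3 and WT 5 lay above every KO library, and the groups overlapped through WT 4, whose 25 macrophages had 0 UMIs. The fitted log2 change was -0.89 ± 0.27 (SE). It was -0.39 without WT 5, where 24 of 214 macrophages carried 56 Pdpn UMIs, -1.51 without WT batch 1 and -0.49 without the 2 pooled KO libraries. The summed E0771 markers, all 8 detected in macrophages, were 5335 to 6513 CPM in WT and 3779 to 5865 CPM in KO macrophages of batch 2, and the summed fibroblast markers, 10 of 13 detected, 0 to 418 and 62.5 to 260.0 CPM. The part of these markers, and of the free RNA given above for macrophages, in the Pdpn values was not tested.

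The inhibitor and the membrane protease of macrophages had smaller differences. Timp2 changed by 0.10 ± 0.28 (log2, SE), with a range of -0.18 to 0.21 when 1 library at a time was left out. Mmp14, under the filter, was 121 ± 26.8 CPM (SD, n = 4) in WT and 97.7 ± 73.7 CPM (n = 4) in KO libraries of batch 2, with 178 and 211 CPM in batch 1.

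**Figure D2:**
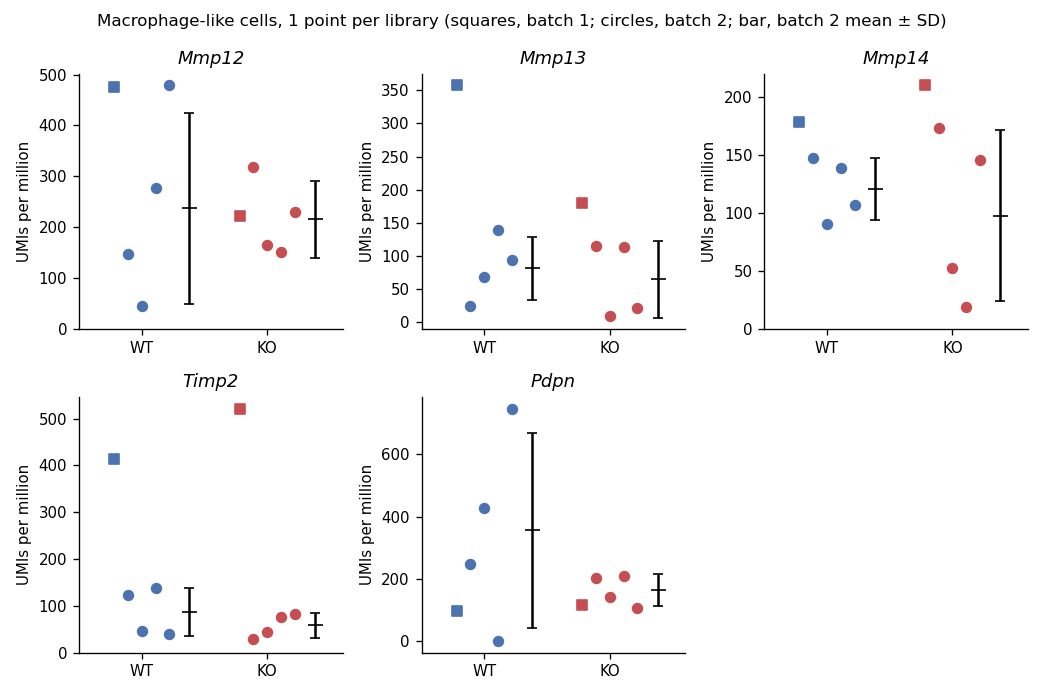
Macrophage CPM of 5 genes, 1 point a library, with squares for batch 1, circles for batch 2 and a bar for the batch 2 mean ± SD (n = 4). For Pdpn, WT 1 (246 CPM), WT 3 (428 CPM) and WT 5 (747 CPM) lie above the KO libraries of batch 2 (104 to 208 CPM) and WT 4 at 0, and for Mmp12 the WT range of 45.1 to 480.2 CPM holds every KO library.

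In fibroblasts 5 of the 10 genes (Mmp2, Mmp14, Timp1, Timp3 and Pdpn) were fitted, with KO batch 1 left out because it held 9 fibroblasts, so that the fit rested on the 4 WT and 4 KO libraries of batch 2. WT batch 1 still counted in the filter on low counts, and Mmp2, Mmp14 and Timp1 passed it through that library. In batch 2 alone 345 genes passed the filter. Over all 960 genes fitted, 0.312% were called by edgeR and none by DESeq2 (55 and 19 genes at an unadjusted p under 0.05), and 2.81% did not overlap between the batch 2 groups. None of the 5 members was among either. The E0771 markers, 8 of 8 detected in fibroblasts, summed to 3121 to 4594 CPM in WT and 5410 to 7478 CPM in KO fibroblasts of batch 2, ranges that did not overlap, and their part in the values below was not tested. The list includes Vim and Aebp1, and how much of that sum fibroblasts themselves made was not tested. Pvt1, Fmnl2 and Cdh13 alone summed to 0.17 and 0.14 of the tumor level in the larger and smaller fibroblast sub-cluster of batch 2. The macrophage markers, 11 of 13 detected with C1qa and C1qc at 0, summed to 0 to 601 CPM in WT and 49.2 to 379 CPM in KO.

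The fibroblast level of Timp3 varied widely between the libraries of both groups. It stood at 581, 318, 658 and 1187 CPM in WT 1, 3, 4 and 5 (11, 9, 6 and 35 UMIs) and at 2299, 936, 479 and 1028 CPM in KO 1, 2+3, 4 and 5+6 (28, 19, 10 and 19 UMIs). KO 1 lay above all WT libraries, KO 4 below 3 of them, and the groups overlapped. A single cell held 12 of the 19 UMIs of KO 5+6, 11 of the 19 of KO 2+3 and 7 of the 11 of WT 1. In the other libraries of batch 2 the most in a cell was 9 of 28 (KO 1), 3 of 10 (KO 4), 3 of 9 (WT 3), 2 of 6 (WT 4) and 5 of 35 (WT 5). The fitted log2 change was 0.64 ± 0.35 (SE), positive in all 23 alternatives, and ranged from 0.18 without KO 1 to 1.21 without WT 5. In batch 1, 276 CPM in WT stood against 637 CPM in KO (23 and 44 UMIs, ratio 2.31, 1.36 to 4.001), but 34 of the 44 KO UMIs came from 1 cell.

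Pdpn, the highest of the 10 in these cells by UMIs in batch 2 (215), did not separate the groups. It stood at 1003, 1237, 2302 and 1289 CPM in WT 1, 3, 4 and 5 and at 1396, 1526, 1534 and 1190.2 CPM in KO 1, 2+3, 4 and 5+6. All KO libraries lay inside the WT range. The log2 change was 0.02 ± 0.32 (SE), or -0.12 to 0.20 with 1 library left out, and -0.45 with no batch covariate. Thus the podoplanin transcript had a fitted change near 0 in fibroblasts and a negative one in macrophages. The difference between the classes was not tested.

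The fibroblast proteases had few UMIs in batch 2. Mmp2 had 9 UMIs over the 4 WT and 14 over the 4 KO libraries, with 8 in KO 5+6. Its log2 change of 0.81 ± 0.68 (SE) was 0.05 without KO 5+6. Mmp14 had 15 and 13 UMIs and a change of 0.06 ± 0.64. Mmp3, under the filter, stood at 240 ± 154 CPM (SD, n = 4) in WT and 231 ± 137 CPM (n = 4) in KO. Mmp2 and Mmp14 passed the filter through WT batch 1, where they had 48 and 42 UMIs. Timp1 passed the filter through the 253 UMIs of WT batch 1, against 6 UMIs in the WT and 4 in the KO libraries of batch 2. Its log2 change of -0.32 ± 0.89 had a wide error.

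**Figure D3:**
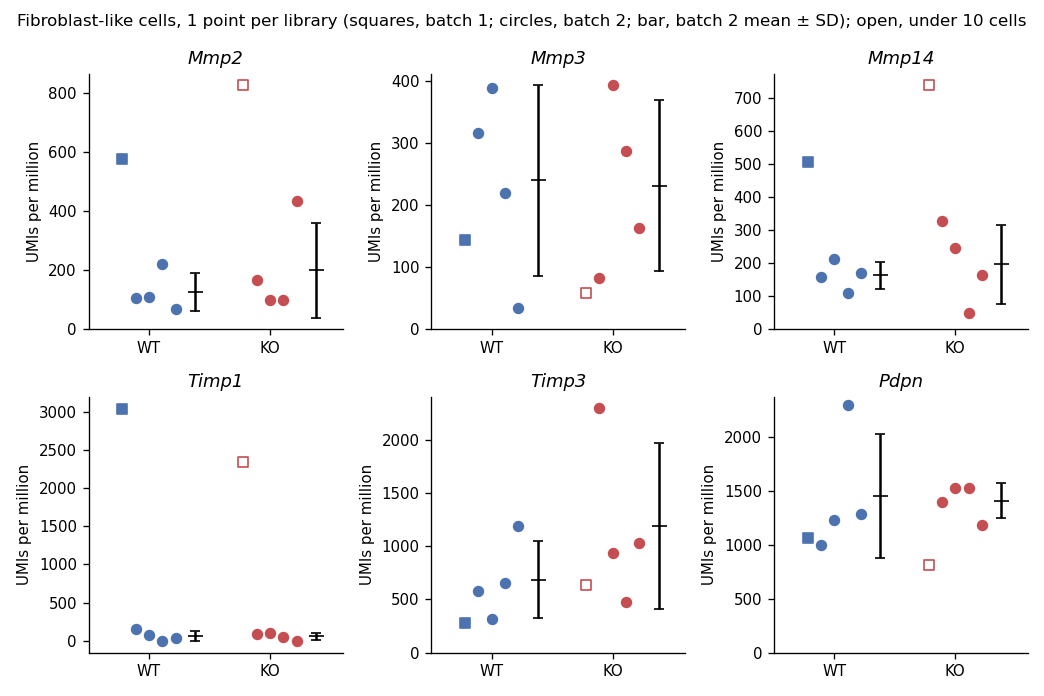
Fibroblast CPM of 6 genes, 1 point a library, with squares for batch 1, circles for batch 2, an open square for KO batch 1 (9 cells, outside the fit) and a bar for the batch 2 mean ± SD (n = 4). Timp3 reaches 2299 CPM in KO 1 and 1187 CPM in WT 5, and Pdpn lies between 1003 and 2302 CPM in the libraries of batch 2.

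Timp3 was followed into pericytes and endothelial cells, which also carried it. Pericytes could be compared in WT 1, 3 and 5 and the 4 KO libraries of batch 2, where at least 10 pericytes were found, and none of the 10 genes passed the filter. Among the 141 genes that did, 0 (0%) were called by edgeR and 0 by DESeq2, with 13 and 6 at an unadjusted p under 0.05, and 7.8% did not overlap. Timp3 had 4, 0 and 1 UMIs in WT 1, 3 and 5 and 7, 14, 5 and 14 UMIs in KO 1, 2+3, 4 and 5+6. In CPM that was 419, 0 and 97.0 against 675, 1014, 636 and 874, or 172 ± 220 (SD, n = 3) and 800.0 ± 177 (n = 4). These 3 WT libraries lay below the 4 KO libraries. WT 4, with 9 pericytes, had 2 UMIs and 643 CPM, inside the KO range. The E0771 markers in pericytes, 7 of 8 detected, summed to 2328 to 4994 CPM in WT and 2315 to 5621 CPM in KO.

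Endothelial cells, in which AGO1 was deleted, carried Timp3 at 0, 158, 210 and 60.3 CPM in WT 1, 3, 4 and 5 and at 481, 344, 239 and 503 CPM in KO 1, 2+3, 4 and 5+6, and at 86.0 CPM in WT batch 1 and 226 CPM in KO batch 1. The 4 WT libraries of batch 2 lay below the 4 KO libraries, on 3 UMIs in 63 WT cells and 24 UMIs in 126 KO cells, and this comparison was added after the values were seen. WT 4 had 8 endothelial cells. Of the 1133 genes with at least 20 UMIs in batch 2 endothelial cells, 3.88% did not overlap between the groups, and 2.21% did so with the KO libraries higher. The summed fibroblast markers, 10 of 13 detected (Lum, Fbln1 and C3 at 0), were 181 to 1580 CPM in WT and 239 to 1383 CPM in KO endothelial cells, and the summed pericyte markers, 8 of 13 detected (Pdgfrb and Cspg4 among those at 0), 0 to 691 and 0 to 1205 CPM. In batch 2 the summed E0771 markers, all 8 detected, were 11376 to 17827 CPM in WT and 8605 to 12471 CPM in KO. The summed endothelial markers were 1929 to 3146 and 2405 to 3968 CPM. Pvt1, Fmnl2 and Cdh13, 3 of the E0771 markers, summed to 0.44 of the tumor level in the endothelial cluster. The part of these marker sets in the Timp3 values was not tested. The numbers were too small for a fit. Other members in endothelial cells were near the limit of counting: Mmp14 in batch 2 had 4 UMIs in the WT libraries and 1 in the KO libraries, and Mmp3, Mmp9, Mmp12 and Mmp13 had 0.

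Over all cells Timp3 stood at 3.60 CPM in WT batch 1, 3.58, 2.76, 3.74 and 6.48 CPM in WT 1, 3, 4 and 5, 8.28 CPM in KO batch 1 and 9.64, 8.52, 4.42 and 11.5 CPM in KO 1, 2+3, 4 and 5+6. Only KO 4 lay inside the WT range. The log2 change was 0.98 ± 0.27 (SE, 5 WT and 5 KO), positive in all 21 alternatives and 0.85 to 1.21 with 1 library left out, and the ratio in batch 1 alone was 2.30 (1.41 to 3.82, 54 and 26 UMIs). Fibroblasts, pericytes and endothelial cells were 0.426% to 1.84% of the cells of a WT library and 1.21% to 1.65% of a KO library and held 42.9% to 96.2% of its Timp3 UMIs, and in a sum over all cells more such cells and more RNA per cell cannot be told apart. In barcodes of at most 50 UMIs, Timp3 stood at 10.2 to 25.4 CPM in WT and 22.8 to 29.6 CPM in KO libraries of batch 2.

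The other members over all cells overlapped between the groups. Of the 9 genes fitted, 4 had a positive and 5 a negative change, and none was called or without overlap, where 0% of all 14181 genes were called by edgeR (1313 at an unadjusted p under 0.05, 2 called by DESeq2) and 4.71% did not overlap. Mmp3 changed by -0.67 ± 0.42 (log2, SE) on 55 WT and 32 KO UMIs. Mmp13 changed by -0.51 ± 0.33, but by -0.04 without either library of batch 1. Mmp12 changed by -0.27 ± 0.34, and by 0.08 without WT 5. Pdpn changed by 0.29 ± 0.31, and by -0.26 without KO 5+6. Mmp2 (0.25 ± 0.34), Timp1 (-0.09 ± 0.21), Mmp14 (0.05 ± 0.15) and Timp2 (-0.03 ± 0.14) changed by less than their error, and Mmp9 was under the filter.

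**Figure D4:**
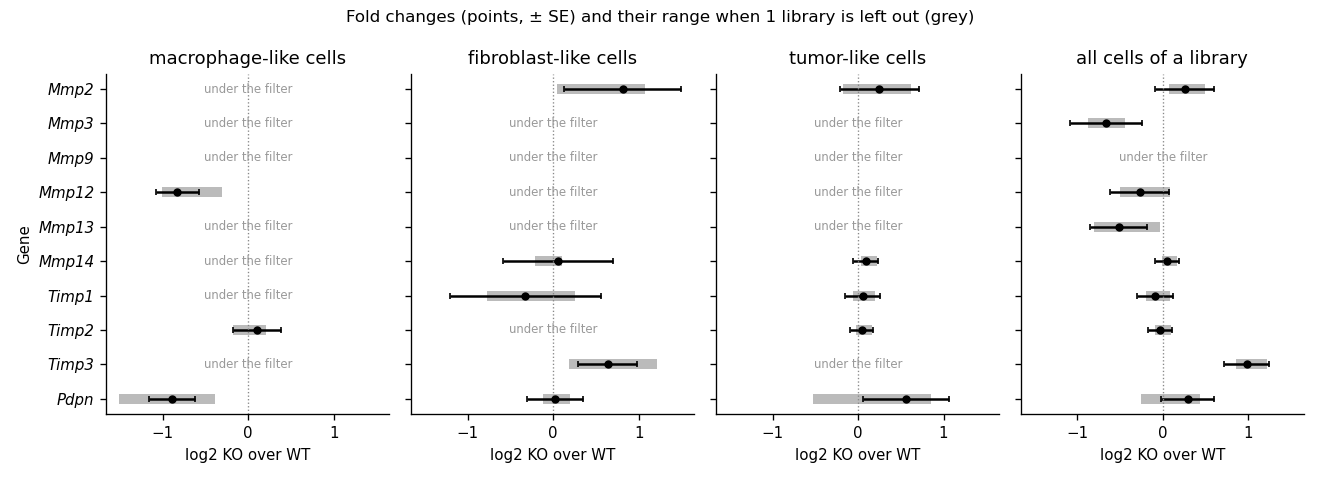
Fitted log2 change (KO over WT) of each gene in macrophages, fibroblasts, tumor cells and all cells, with bars for the SE, grey bands for the range of the fits with 1 library left out, and genes with too few UMIs marked as under the filter. Timp3 lies above 0 in fibroblasts (0.64) and in all cells (0.98), Mmp12 (-0.83) and Pdpn (-0.89) lie below 0 in macrophages, and the band of Pdpn in tumor cells crosses 0.

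In tumor cells 5 of the 10 genes were fitted, each with a positive change. Mmp14 stood at 77.9 ± 16.1 CPM (SD, n = 4) in WT and 89.7 ± 13.5 CPM (n = 4) in KO libraries of batch 2 and changed by 0.09 ± 0.15 (log2, SE). Timp2 stood at 153 ± 29.7 and 164 ± 18.6 CPM and changed by 0.04 ± 0.13. Both lay close to 0 with the smallest errors of the tumor fits. Timp1 (0.05 ± 0.21) and Mmp2 (0.25 ± 0.46) also changed by less than their error. Of all 12864 genes fitted in tumor cells, 0.00777% were called by edgeR and none by DESeq2 (685 and 589 at an unadjusted p under 0.05), and 3.02% did not overlap. None of the 5 members was among either.

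Pdpn in tumor cells was set by 1 library. It stood at 4.81 CPM in WT batch 1, 12.1, 12.3, 22.4 and 7.85 CPM in WT 1, 3, 4 and 5, 1.55 CPM in KO batch 1, 9.45, 15.3 and 8.13 CPM in KO 1, 2+3 and 4, and 65.0 CPM in KO 5+6. KO 5+6, a pool of 2 tumors, had 321 Pdpn UMIs in 219 of 6147 tumor cells, with at most 6 in a cell. Pdpn was above every other library in KO 5+6 in each of the 8 tumor clusters of batch 2 (31.7 to 103 CPM, against at most 39.9 CPM elsewhere). The log2 change of 0.56 ± 0.50 (SE) turned to -0.53 without KO 5+6. Free RNA held Pdpn at 77.1 CPM in KO 5+6 and at 42.5 to 59.9 CPM in the other batch 2 libraries, above the level pooled over the tumor cells of the same library. In KO 5+6 the tumor clusters ranged on both sides of it, up to 103 CPM. The estimated share of free RNA among tumor-cell UMIs was 4.57% in KO 5+6 and 2.75% to 5.26% over the 10 libraries, and its part in the Pdpn values was not tested.

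**Figure D5:**
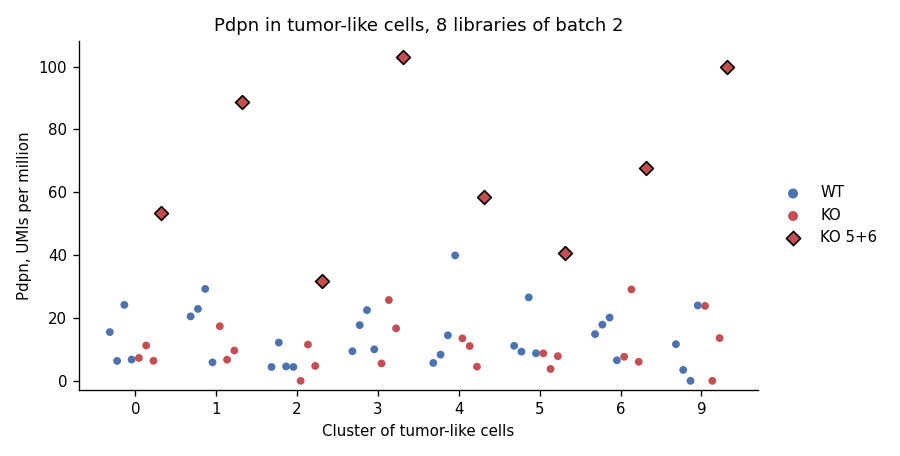
Pdpn level in CPM in each cluster of tumor cells (x axis, cluster number), 1 point for each of the 8 libraries of batch 2, with KO 5+6 as a diamond. KO 5+6 lies above the other 7 libraries in every cluster, at 31.7 to 103 CPM.

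The genes around the 10 were described from 5 lists. Among other MMPs with Timp4 and Reck, ADAM and ADAMTS proteases, activators and partners, matrix substrates, and inducers of MMP genes, none of the genes fitted was called by edgeR or DESeq2: 0 of 14 in macrophages, 0 of 22 in fibroblasts, 0 of 6 in pericytes, 0 of 51 in tumor cells and 0 of 61 in all cells, with 1, 0, 1, 3 and 5 at an unadjusted p under 0.05. Median changes of the lists in all cells were 0.12 for other MMPs (8 of 18 in the table fitted), -0.06 for ADAM and ADAMTS proteases (14 of 15), 0.01 for activators (13 of 15), -0.22 for matrix substrates (15 of 15) and 0.07 for inducers (11 of 12), beside -0.00 over all genes fitted. In tumor cells they were 0.15 (6), -0.06 (13), 0.04 (12), -0.15 (11) and 0.09 (9) in the same order.

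Among inducers, the AP-1 subunit Jun had a log2 change of 0.66 ± 0.25 in macrophages (edgeR adjusted p = 0.781) and 0.17 ± 0.42 in fibroblasts (adjusted p = 0.999), Il1b -0.38 ± 0.25 in macrophages (adjusted p = 0.992) and Fos 0.48 ± 0.27 in tumor cells (adjusted p = 0.893). The cytokine gene Il6 had 0.99 ± 0.30 and Tgfb2 -0.48 ± 0.15 in all cells (edgeR adjusted p = 0.443 for both), and Tgfb2 -0.45 ± 0.17 in tumor cells (0.893). The transcription factor Ets1 had -1.25 ± 0.44 in pericytes (edgeR adjusted p = 0.263), where Runx1 had 0.21 ± 0.38, Furin, a proprotein convertase that activates membrane MMPs, -0.13 ± 0.48, Col4a1 -0.47 ± 0.37 and Sparc 0.33 ± 0.38. None of these passed the test.

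Among activators and partners, Serpine2, which encodes a secreted inhibitor of serine proteases, had 0.70 ± 0.31 in all cells (edgeR adjusted p = 0.520). Plaur, the urokinase receptor, had 0.41 ± 0.27 and Ezr, a linker of podoplanin to actin, 0.33 ± 0.33 in macrophages, and Ezr 0.23 ± 0.12 in tumor cells. Bsg, an inducer of MMPs, had -0.37 ± 0.76 in fibroblasts. Among substrates, the elastin gene Eln had -0.82 ± 0.50 and Sparc 0.44 ± 0.34 in fibroblasts, Lamc1 -0.23 ± 0.11 in tumor cells and -0.29 ± 0.11 in all cells, Col1a2 -0.60 ± 0.38 in tumor cells and Col3a1 -0.42 ± 0.19 in all cells. Of the proteases, Adam10 (-0.12 ± 0.21) and Adam17 (0.27 ± 0.26) in macrophages, Adam12 (0.49 ± 0.50) and Adamts5 (0.54 ± 1.06) in fibroblasts, Adamts9 (0.60 ± 0.42) and Adamts12 (-0.65 ± 0.38) in tumor cells, and Adam12 (0.49 ± 0.25) and Adam19 (0.66 ± 0.36) in all cells also failed the test, as did Mmp19 (0.22 ± 0.20) and Mmp24 (0.49 ± 0.38) in tumor cells and Mmp23 (0.60 ± 0.53) and Mmp24 (0.56 ± 0.37) in all cells.

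The genes most like each member across 21 clusters, by Pearson's r of log2(CPM + 10), followed the source cells. These are correlations over clusters that share libraries and depth, given as a description. Mmp2 went with the collagen cross-linkers Loxl1 (r = 0.96) and Lox (0.95) and with Lum (0.96), and Mmp3 with Cpxm1 (0.98), Sfrp2 (0.98) and Apod (0.95). Mmp12 went with Cd300a (0.98), Hk3 (0.98) and the chemokine receptor Ccr1 (0.97), and Mmp13 with the chemokines Ccl8 (0.96) and Ccl7 (0.92) and with Ptgs2 (0.93). Mmp14 went with Lrp1 (0.94), an endocytic receptor, Itga5 (0.92) and Emp1 (0.90). Timp1 went with Loxl2 (0.97), Nbl1 (0.93) and Gstm2 (0.93), Timp2 with Idh2 (0.89), Axl (0.88) and Tcp11l1 (0.87), and Timp3 with Peli2 (0.95) and Tshz3 (0.93). Pdpn went with C4b (0.87), Hgf (0.86) and C3 (0.85), and Mmp9, on 54 UMIs, with C3 (0.90), Saa3 (0.90) and Ptgs2 (0.88).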

How the data were processed

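Tumors were dissociated and profiled with the 10x Genomics 3′ v3 single-cell protocol, and the authors deposited unfiltered tables of counts (UMIs per gene and barcode), made with Cell Ranger 7.1.0 on mm10 per the labels. Raw counts were used. Cells were barcodes of 200 to 7000 genes whose mitochondrial share of UMIs was 10% or less, after the study's methods. The log-normalised cells were clustered (2000 variable genes without the 10 members, Actb and Ago1, 30 principal components, Leiden resolution 1, leidenalg 0.10.2) and named from marker lists. The thresholds for naming, and the separation of clusters mixed with tumor markers, were set after seeing the clusters. No doublet caller was run. Members and lists were chosen with earlier results of these data known. Pathway genes are named where called, and otherwise the 2 of lowest unadjusted p in each list and class, and the 3 genes most like a member by r among genes with at least 100 UMIs. Some genes that these rules name are not reported here.

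UMIs were summed per library and class of at least 10 cells and fitted with edgeR 4.0.16 (R 4.3.3; filterByExpr, TMM, glmQLFit, genotype plus batch, Benjamini-Hochberg adjustment over all genes fitted), with DESeq2 1.42.0 as an alternative. The fitting code was run on simulated counts with a fixed spread, which was not matched to the spread between these libraries. Libraries are separate tumors or pools of 2, and whether the replicate numbers name animals is not stated in the sources used here. Other alternatives were the filter, scaling, Actb, batch, pooled libraries, single libraries, a replicate block, cell limits, resolution and free RNA subtraction. Intervals cover counting error only. Mmp12, Timp1 and Timp3 overlap a gene on the other strand (Mmp1b, Syn1 and Syn3) and Timp2 overlaps Cep295nl on its own strand, so that reads of Timp2 could be split or shared. Gene positions are those of GRCm38.p6.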

Additional observations from a re-analysis of the deposited data

Results flagged for a closer look

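In 21 of 52 groups of 4 or 5 libraries, 1 library lay farther from the others than Dixon's limit allows, where chance flags about 1 in 20. Most of these were the batch 1 library, which differs from the others in platform, number of cells and UMIs per cell.

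Over all cells, Mmp12 stood at 53.1 CPM in WT batch 1 and 31.6 CPM in KO batch 1, Mmp13 at 41.3 and 23.0 CPM, Timp1 at 75.9 and 59.1 CPM and Timp2 at 434 and 455 CPM, each far above the batch 2 libraries of its group. The same held for Timp2 in macrophages (414 CPM in WT batch 1 and 522 CPM in KO batch 1), for Timp1 in tumor cells (47.5 and 42.1 CPM) and for Timp2 in tumor cells (461 and 479 CPM). In fibroblasts WT batch 1 stood apart for Timp1 (3039 CPM), Mmp14 (504 CPM) and Mmp13 (288 CPM, from 1 cell).

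The remaining ones were in batch 2. KO 5+6 stood apart for Pdpn in tumor cells (65.0 CPM) and over all cells (72.6 CPM), WT 5 for Timp3 over all cells (6.48 CPM against 2.76 to 3.74 CPM in the other WT libraries), and WT 4 for Pdpn in fibroblasts (2302 CPM, on 21 UMIs). The causes were not tested.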

How the results depend on the processing

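Of the alternative log2 changes of the members, 445 stayed within 1 SE of the reported value and 26 moved by more. Batch 1 rests on 1 library per genotype, and most members had under 10 UMIs per library in the stromal classes of batch 2.

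The number of genes called was 0 in macrophages, 3 in fibroblasts, 0 in pericytes, 1 in tumor cells and 0 over all cells. With no filter on low counts it was 6, 0, 0, 43 and 242, with at least 10 UMIs in 5 libraries 0, 3, 1, 0 and 0, in DESeq2 0, 0, 0, 0 and 2, and with no batch covariate 0 in each. In batch 2 alone it was 0 in tumor cells, and without the 2 pooled KO libraries 0 in fibroblasts and 1 over all cells. With at most 20% mitochondrial UMIs it was 2, 0, 1, 0 and 0, with at least 500 UMIs per barcode 0 in fibroblasts and in tumor cells (pericytes could not be fitted), at resolution 0.5 it was 0 in tumor cells, at resolution 2 it was 3 in macrophages, 1 in pericytes and 0 in tumor cells, with free RNA subtracted 0 in fibroblasts and in tumor cells, and with the macrophage and monocyte sub-clusters added to macrophages, chosen after seeing the data, 1. With 1 library left out at a time it ranged from 0 to 5 in macrophages (5 without WT batch 1 or KO batch 1), 0 to 4 in fibroblasts (0 without WT 5 or KO 2+3), 0 to 2 in pericytes (2 without KO 4), 0 to 1 in tumor cells (0 without WT batch 1, KO batch 1, WT 3 or KO 1) and 0 to 1 over all cells (1 without KO 2+3 or KO 4). The causes were not tested.

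WT and KO share the replicate numbers 1 and 4, whose deviations from the group means correlated at -0.21 and -0.25 over 14181 genes, while pairs of other numbers lay between -0.16 and 0.32. Libraries of the same number were thus not more alike than others. Whether equal numbers mark a shared litter or day cannot be told from these correlations. With a replicate block in place of batch, the counts were 0, 3, 0, 0 and 0. The class of highest mean level was the same for each gene in batch 2 alone and at either resolution, and in batch 1 alone it was fibroblasts for Mmp13 and tumor cells for Mmp9.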
